A study of Mus musculus with 4 samples.

Results

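The main clear cells were the 28 caput, 69 corpus, 94 cauda and 25 vas deferens cells that the deposited cell annotation groups as the third subcluster of clear cells. They made up 62.1% of the 348 clear cells and 2.43% of the 8880 annotated cells of a single-cell RNA-seq survey of the mouse epididymis and vas deferens. The other clear cells were 78 cells of an Amylin-positive subcluster, found in the caput and corpus libraries, and 54 cells with few molecules. Every cell came from male FVB/NJ mice of 10 to 12 weeks. The 8 epididymides of 4 animals were cut into caput, corpus, cauda and vas deferens segments, and each segment was pooled into 1 droplet library. There was no treatment, and each region had 1 library, so no difference between regions could be tested against animals. Values are unique molecular identifiers (UMIs) summed over the main clear cells of a library and given per 1000000 of their UMIs (UPM), with exact 95% Poisson intervals for levels, exact conditional binomial intervals for ratios and Clopper-Pearson intervals for shares of cells. All of these intervals cover counting error only.

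Clear cells are the proton-secreting cells of the epididymal duct, relatives of the intercalated cells of the kidney. They carry the vacuolar ATPase (V-ATPase) in their apical membrane, move it there from a pool of endocytic vesicles, and keep the luminal fluid acidic so that stored sperm stay quiescent. Principal cells, which far outnumber them, secrete region-specific proteins into the lumen, and the transcripts of these proteins are abundant in the tissue.

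The caput library held 28 main clear cells, or 1.95% of its cells (1.30 to 2.81). In the corpus there were 69 cells, or 2.97% (2.32 to 3.74), in the cauda 94 cells, or 5.82% (4.73 to 7.07), and in the vas deferens 25 cells, or 0.713% (0.462 to 1.05). The intervals of the cauda and vas deferens shares lay apart from those of the other libraries, and those of the caput and corpus overlapped. Summed depth was 123068 UMIs in caput, 259806 in corpus, 565487 in cauda and 140185 in vas deferens cells. Median depth per cell was 5060, 1796, 6542 and 6518 UMIs in the same order, so corpus cells were the shallowest. The cauda levels were therefore the most precise: 3 UMIs, the lowest count read as a level here, correspond to 5.31 UPM in the cauda and to 24.4 UPM in the caput. Of the 43 cell barcodes that occurred in more than 1 library, 1 belonged to a main clear cell, and no barcode was shared between main clear cells.

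The label held for most cells but not for all of them. The 8 clear cell markers (*Atp6v1g3*, *Atp6v1b1*, *Atp6v0d2*, *Atp6v0a4*, *Atp6v1c2*, *Foxi1*, *Slc4a9* and *Hepacam2*) summed to 8880 UPM in main clear cells, against 10179 in Amylin-positive clear cells, 66.7 in principal cells and 36.9 in basal cells. By library it was 9686 UPM in caput, 9646 in corpus, 9342 in cauda and 4886 in vas deferens cells. No UMI of the 8 markers was found in 36 cells, of which 6 were caput, 14 corpus, 5 cauda and 11 vas deferens cells. In the caput, corpus and cauda such cells were shallow, with at most 459, 1120 and 1475 UMIs. In the vas deferens 5 of the 11 had 4781 to 12354 UMIs each. Those 5 cells held 44480 UMIs without a marker, which allows at most 82.9 UPM, while 1.88 to 4.11% of their UMIs came from principal cell transcripts of the vas deferens. The vas deferens values below are therefore given for all 25 cells and, where it matters, for the 14 cells with at least 1 marker UMI, in which the markers summed to 7534 UPM. That selection uses marker genes, so marker levels in the 14 cells are fixed in part by the choice.

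Principal cell transcripts were measured in main clear cells with genes that the principal cells of a library held at 4 or more times the level of every other library's principal cells, with at least 500 UMIs there, so each library has its own set of genes. In the caput 55 such genes reached 4420 UPM in main clear cells, 1.58% of their level in principal cells. In the corpus 20 genes reached 5489 UPM (7.85%), in the cauda 11 genes 239 UPM (1.13%) and in the vas deferens 52 genes 16528 UPM (17.9%). Main clear cells of the other 3 libraries held the same genes at a mean of 1395, 1983, 513 and 10505 UPM. The level beyond that mean was 1.08% of the principal level in caput, 5.01% in corpus, -1.30% in cauda and 6.52% in vas deferens cells, so the cauda set was not raised in the cauda and much of the vas deferens share was not particular to that library. These UMIs were unevenly spread: 3 cells held 32.9% of them in caput, 28.1% in corpus, 42.2% in cauda and 45.9% in vas deferens cells. Cells in which such transcripts exceeded 2% of the UMIs numbered 3, 11, 0 and 7 in the same order, and the 7 vas deferens cells had no marker UMI among 42121 UMIs. A doublet caller marked 0, 2, 4 and 13 cells. In the vas deferens the 13 called cells had the higher marker level (6753 UPM, against 1641 in the 12 others) and the lower level of principal transcripts (8416 against 30633 UPM). Of the 14 vas deferens cells with a marker 12 were called doublets, so the values of those 14 cells rest on cells that another filter would remove. What placed cells without markers in this subcluster was not tested.

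**Figure D1:**
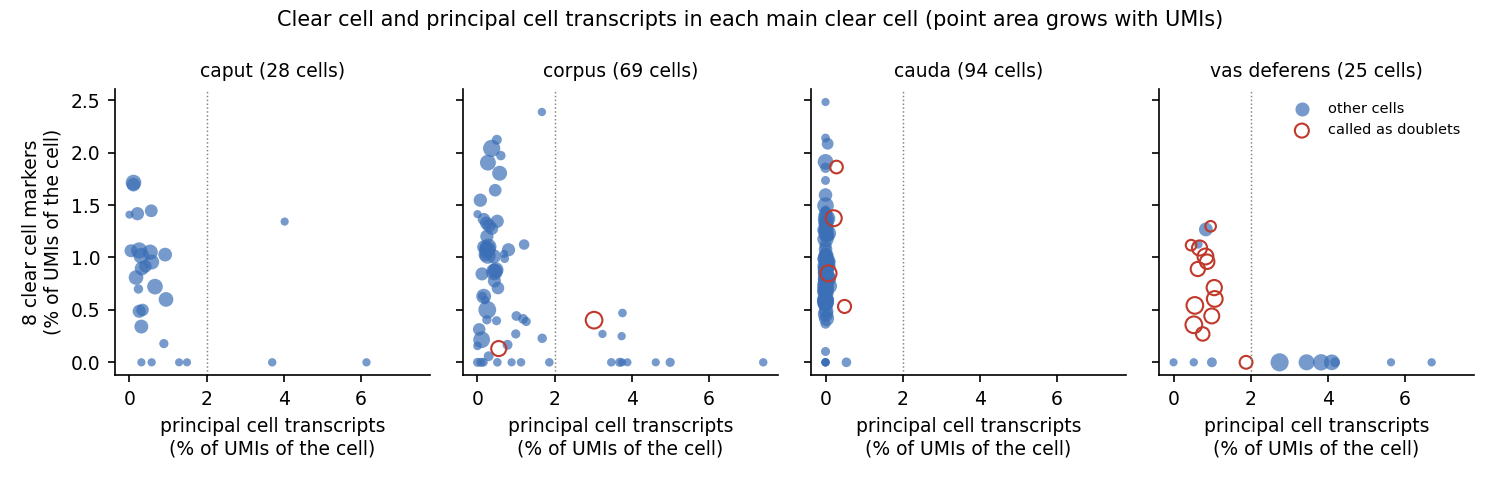
Each point is 1 main clear cell, in 1 panel for each library. The x axis gives principal cell transcripts and the y axis the 8 clear cell markers, both as a percent of the UMIs of the cell, red circles mark called doublets and the dotted line marks 2%. No cauda cell lies beyond the line, and the 7 vas deferens cells beyond it all lie at 0 on the marker axis.

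With UMIs summed over cells, the V-ATPase was held at a similar level in caput, corpus and cauda. The V1 sector, which hydrolyzes ATP, had 12 genes that summed to 11733 UPM (11136 to 12355) in caput, 11932 (11516 to 12360) in corpus, 12952 (12657 to 13252) in cauda and 7476 (7030 to 7943) in vas deferens cells. In the 14 vas deferens cells with a marker the V1 sum was 10691 UPM. The V0 sector, the membrane part through which protons pass, had 9 genes that summed to 5924, 5712, 5698 and 5379 UPM, with overlapping intervals, and to 7512 UPM in the 14 vas deferens cells with a marker, above the cauda. Accessory proteins of the pump, a list of 10 genes, summed to 2291, 2571, 2437 and 1940 UPM. The cauda exceeded the corpus in the V1 sum and lay within counting error of it for the V0 sum. With every cell weighted equally, the V1 sum was 8772 UPM in caput, 9860 in corpus and 12839 in cauda cells. The V0 sum was then 4282, 5070 and 5581 UPM, so both rose from caput to cauda. Subunits that are not among the 8 markers summed to 9003, 8891, 10092 and 8375 UPM, and to 11296 UPM in the 14 vas deferens cells, so that whether the vas deferens stood below or above the cauda in these subunits turned on the cells without a marker.

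Individual subunits differed more than the sums. *Atp6v1g3*, the G subunit isoform of proton-secreting cells, stood at 7671 UPM in caput, 7702 in corpus, 7326 in cauda and 3545 in vas deferens cells, and at 5467 UPM in the 14 vas deferens cells. The first 3 values had overlapping intervals and the vas deferens was the low library. *Atp6v1b2*, the widely expressed isoform of the B subunit, had 65.0 UPM in caput, 100 in corpus, 246 in cauda and 136 in vas deferens cells, a cauda level 2.46 times that of the corpus (1.61 to 3.89). Its counterpart *Atp6v1b1*, the isoform of specialized proton-secreting cells, had 268, 158, 215.7 and 64.2 UPM. The catalytic subunit gene *Atp6v1a* had 739, 862, 1257 and 685 UPM, and its cauda level was 1.46 times that of the corpus (1.25 to 1.70). *Atp6v0a4*, the V0 a-subunit isoform of intercalated cells, went the other way, with 163 and 173 UPM in caput and corpus against 79.6 and 92.7 in cauda and vas deferens. *Atp6v0a4* and *Atp6v1b1* belong to the clear cell markers. The vas deferens cells without a marker therefore hold none of their UMIs and lower their vas deferens levels. The proteolipid gene *Atp6v0c* had 3177, 2486, 2575 and 2575 UPM. Thus *Atp6v1b2* was the only V-ATPase subunit past the rule used below for the cauda and corpus, a difference of 2 times with 50 UMIs in the higher library. *Atp6v0a4* had 45 UMIs in the corpus and so could not pass it.

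**Figure D2:**
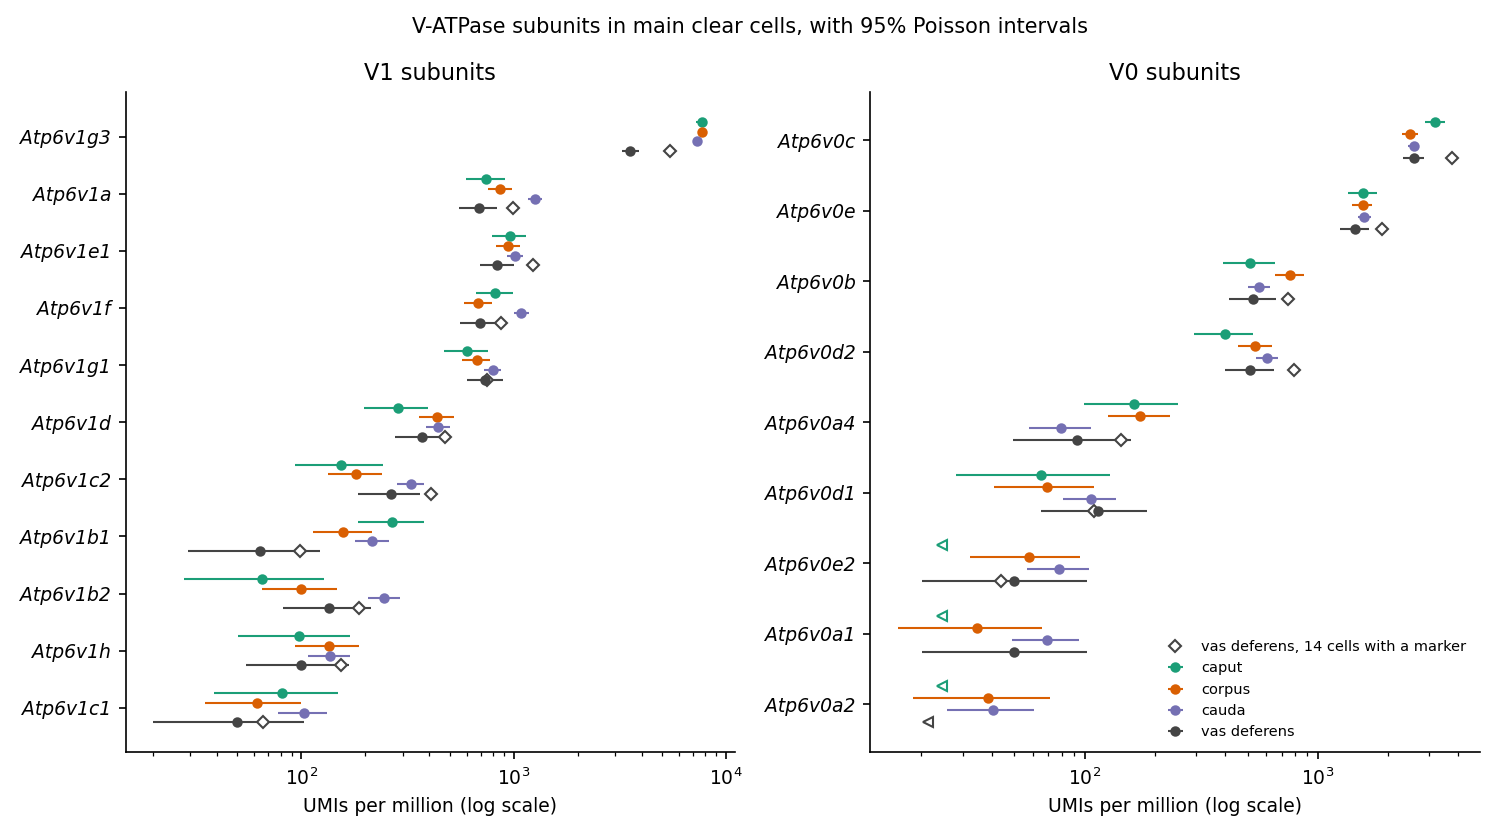
Levels of V-ATPase subunits in main clear cells, in UPM on a log axis, with 95% Poisson intervals. Filled points are the 4 libraries, open diamonds the 14 vas deferens cells with a marker, and triangles mark genes under 3 UMIs drawn at 3 UMIs. For *Atp6v1g3* the caput, corpus and cauda points lie together near 7326 to 7702 and the vas deferens lies lower at 3545.

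Genes for bicarbonate, chloride and proton handling kept no common gradient. The list of 29 genes summed to 1178 UPM in caput, 1732 in corpus, 1429 in cauda and 1106 in vas deferens cells. None of its members passed a rule, but only 5 had the 50 UMIs needed for the cauda and corpus rule. *Slc26a3*, a chloride-bicarbonate exchanger, had 431, 531, 428 and 92.7 UPM, and 143 UPM in the 14 vas deferens cells with a marker. The cytosolic carbonic anhydrase gene *Car2* had 163, 200, 210 and 221 UPM. *Car2* levels thus overlapped in all 4 libraries, while *Slc26a3* was low in the vas deferens. *Car12*, a membrane-bound carbonic anhydrase, had 32.5, 123, 95.5 and 200 UPM, from 4 UMIs in the caput.

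Among lineage factors the master regulator *Foxi1* had 699 UPM in caput, 766 in corpus, 730 in cauda and 307 in vas deferens cells (473 in the 14 cells). *Tfcp2l1*, a factor it works with in intercalated cells, had 496, 797, 789 and 442 UPM. The 2 genes had caput, corpus and cauda levels within 1.61 times of each other. By contrast *Hepacam2*, a surface marker of these lineages, had 333, 127, 46.0 and 99.9 UPM, and *Dmrt2*, a transcription factor of intercalated cells, had 317, 235, 131 and 92.7 UPM. Both stood highest in the caput. *Hepacam2* belongs to the clear cell markers, so the vas deferens cells without a marker hold none of its UMIs and lower its vas deferens level. *Rhbg*, an ammonia channel, rested on 1 UMI in caput and 1 in vas deferens cells, with 84.7 UPM in corpus and 40.7 in cauda. The 16 genes of the lineage list summed to 2657, 2706, 2398 and 1541 UPM.

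A group of *Id* genes differed between the ends of the tract, with higher levels in cauda and vas deferens than in caput and corpus. Id proteins lack a DNA-binding domain and hold basic helix-loop-helix factors inactive, and their genes are immediate targets of bone morphogenetic protein (BMP) signaling through Smad factors. Because these genes moved together, the 250 bases upstream of 3 of them are shown (RefSeq, GRCm38.p6), with capitals marking short motifs that Smad factors bind. The motif GTCT is the Smad binding element, and GGCGCC is a GC-rich element of BMP target genes. A close variant of it, GGAGCC, was searched as well. Both strands were searched, so that AGAC and GGCTCC are also in capitals, and no matches overlapped. *Id2* lies at chr12:25096093-25096342 on the minus strand, *Id3* at chr4:136143572-136143821 and *Id4* at chr13:48260866-48261115, both on the plus strand. *Id1* is named only.
*Id2*: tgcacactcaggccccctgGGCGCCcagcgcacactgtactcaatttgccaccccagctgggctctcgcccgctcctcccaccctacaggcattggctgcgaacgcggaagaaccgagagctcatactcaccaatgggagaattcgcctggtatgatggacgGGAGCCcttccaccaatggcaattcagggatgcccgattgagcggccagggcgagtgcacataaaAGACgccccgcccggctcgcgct
*Id3*: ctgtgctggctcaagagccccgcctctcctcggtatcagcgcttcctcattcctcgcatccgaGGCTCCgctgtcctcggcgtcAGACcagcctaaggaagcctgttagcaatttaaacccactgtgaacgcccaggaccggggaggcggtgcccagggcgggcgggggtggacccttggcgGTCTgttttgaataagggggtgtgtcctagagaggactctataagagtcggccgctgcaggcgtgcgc
*Id4*: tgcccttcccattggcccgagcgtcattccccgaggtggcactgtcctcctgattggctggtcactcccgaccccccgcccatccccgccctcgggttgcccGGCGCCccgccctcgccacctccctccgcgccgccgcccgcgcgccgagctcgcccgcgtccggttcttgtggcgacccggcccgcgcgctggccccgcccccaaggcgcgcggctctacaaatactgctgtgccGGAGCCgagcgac
GTCT was matched 1 time upstream of *Id2*, 2 times upstream of *Id3* and 0 times upstream of *Id4*. GGCGCC was matched in *Id2* and *Id4*, and GGAGCC in all 3. Among 32851 promoters of the same length, 82.9% held GTCT, 9.59% GGCGCC and 26.0% GGAGCC. A match is a description of the letters and not a site of binding.

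*Id3* had 16.3 UPM in caput (2 UMIs), 19.2 in corpus (5 UMIs), 861 in cauda (487 UMIs) and 1284 in vas deferens cells (180 UMIs). The cauda level was 44.8 times that of the corpus (19.0 to 138), and the vas deferens level 79.0 times that of the caput (21.6 to 657). The caput and corpus were both low, and their intervals lay far below those of cauda and vas deferens. *Id2* had 106, 80.8, 916 and 1084 UPM, with a cauda level 11.3 times that of the corpus (7.34 to 18.5). *Id1* had 8.13 UPM in caput (1 UMI), none in corpus, 269 in cauda and 307 in vas deferens cells, a cauda level at least 23.3-fold higher than the corpus. *Id4* had 0, 11.6, 172 and 193 UPM, and its cauda level was 14.9 times that of the corpus (4.94 to 73.3). Cauda and vas deferens values overlapped for *Id1*, *Id2* and *Id4*, and for *Id3* the vas deferens was higher.

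*Smad7*, a feedback inhibitor of the same receptors, followed the *Id* genes with 16.3, 11.6, 244 and 228 UPM. Its cauda level was 21.1 times that of the corpus (7.08 to 104). In the 14 vas deferens cells with a marker *Id3* had 1672 UPM, *Id2* 1408, *Id1* 330, *Id4* 253 and *Smad7* 308, so none of these levels rested on the cells without markers. Without the called doublets, 12 vas deferens cells were left, with 586 UPM of *Id3*, 528 of *Id2*, 254 of *Id1*, 97.7 of *Id4* (5 UMIs) and 156 of *Smad7* (8 UMIs), and the vas deferens then stood below the cauda for each of them. The genes also showed in more cells: after every cell was thinned to 1000 UMIs, *Id3* was seen in 0 of 20 caput cells, where a limit of 3 cells allows up to 15.0% of cells with a UMI, in 1 of 48 corpus cells, in 30 of 84 cauda cells (35.7%, 25.5 to 46.9) and in 7 of 20 vas deferens cells (35.0%, 15.4 to 59.2). Without thinning, *Id3* UMIs were found in 2 caput, 4 corpus, 55 cauda and 16 vas deferens cells. *Id2* was seen in 2, 3, 45 and 12 of the same numbers of thinned cells.

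A wider list of 16 BMP and TGF-beta targets, drawn up with these results known, summed to 804 UPM in caput, 885 in corpus, 3379 in cauda and 3923 in vas deferens cells. Of its 9 members with 50 UMIs in cauda or corpus, 6 were at least 2 times higher in cauda and 0 in corpus (*Id1*, *Id2*, *Id3*, *Id4*, *Smad7* and *Tgfbi*). Over all 2103 genes tested, 134 (6.37%) were higher in the cauda and 39 (1.85%) in the corpus. The *Id* genes and *Smad7* were in view when the list was made and account for 5 of the 6, so nothing is read from its share against that of all genes. Members outside the rule included *Klf10* with 81.3, 96.2, 119 and 121 UPM and *Tgif1* with 406, 408, 387 and 200 UPM. A list of 35 ligands, receptors, Smads and inhibitors of the same pathways summed to 1097, 1120, 1148 and 1027 UPM, and only 2 of its members had the 50 UMIs needed for the cauda and corpus rule, of which neither passed. *Tgfb2*, a ligand, had 89.4, 208, 276 and 164 UPM.

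*Id1* and *Id3* were also higher at the distal end in principal, basal and stromal cells of the same libraries. *Id3* had 23.2, 105, 333 and 438 UPM in principal cells, 37.6, 44.2, 985 and 1313 in basal cells and 496, 657, 2020 and 2720 in stromal cells. *Id1* had 5.22, 7.05, 134 and 105 UPM in principal cells and 22.0, 1.62, 255 and 223 in basal cells. Library and region cannot be told apart for such a shared pattern, because each region was 1 library. *Id4* had 51.0, 17.04, 142 and 144 UPM in basal cells, but stromal cells had 365, 304, 218 and 167 UPM, the opposite order. *Id2* was also higher at the distal end in principal cells (95.7, 76.1, 202.3 and 222.5 UPM). Basal cells likewise had 83, 169, 505 and 786 *Id2* UMIs among 1411030, 2464897, 956465 and 1351168 UMIs from caput to vas deferens. In stromal cells, however, *Id2* was highest in the caput (1097, 465, 512 and 699 UPM), and *Id3* in endothelial cells was lowest in the vas deferens (508, 377, 335 and 147 UPM). *Smad7* in principal cells stood at 41.8, 4.93, 17.8 and 15.0 UPM, with the caput highest, and in basal cells at 63.1, 37.3, 162 and 153 UPM. Of the 39 genes that were at least 2 times higher in both distal libraries than in both proximal libraries of main clear cells (1.48% of 2633 tested), 6 met the same rule in principal cells, and 29 stood above the principal cells of both distal libraries. The matching shares of all genes tested are not given here, so nothing is read from the 6 or the 29.

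**Figure D3:**
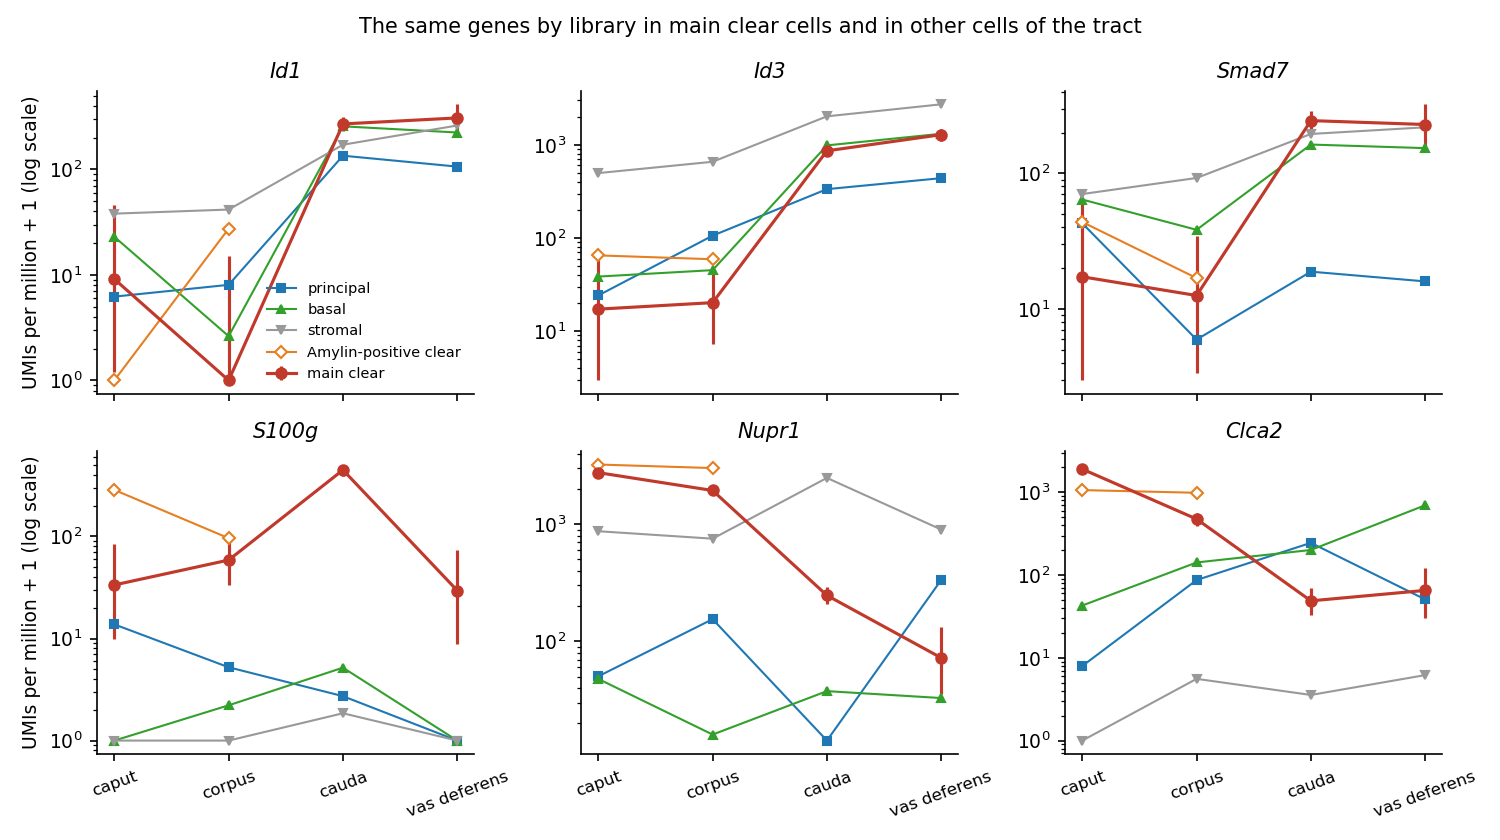
UPM plus 1, on a log axis, of 6 genes in each library, for main clear cells (red, with 95% Poisson intervals), principal, basal, stromal and Amylin-positive clear cells. *Id1* and *Id3* are higher in cauda and vas deferens than in caput and corpus in main clear, principal, basal and stromal cells, whereas *Clca2* is highest in the caput in main clear cells (1901) and lowest there in principal cells (6.96).

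Other genes that were higher in the distal libraries encode membrane and calcium-binding proteins. *Fxyd3*, a regulator of the sodium-potassium ATPase, had 122 UPM in caput, 100 in corpus, 914 in cauda and 770 in vas deferens cells, a cauda level 9.14 times that of the corpus (6.16 to 14.1). Basal cells held *Fxyd3* at 1304 to 1733 UPM in all libraries, without the step between corpus and cauda. Principal cells had 49.9, 28.2, 137 and 8.97 UPM, so they shared the step from corpus to cauda but were lowest in the vas deferens. *Gpr110*, an adhesion G protein-coupled receptor, had 0 UMIs in caput and corpus, 189 UPM in cauda and 99.9 UPM in vas deferens cells, and was at least 16.4-fold higher in cauda than in corpus. It was at most 5.75 UPM in principal, basal and stromal cells of any library. *Lgals3*, encoding galectin 3, had 48.8, 231, 1478 and 835 UPM, and principal cells, with 70.8, 146.6, 286.3 and 180.3 UPM, were also highest in the cauda. *Sgms2*, a sphingomyelin synthase, had 16.3, 46.2, 269 and 228 UPM. *Sox9*, a transcription factor of duct epithelia, had 65.0, 84.7, 212 and 264 UPM. In each of these the caput and corpus were the low libraries, and no interval of cauda or vas deferens reached theirs.

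Members of the S100 family of calcium-binding proteins differed in their pattern along the tract. *S100a1* had 650, 312, 1744 and 1341 UPM from caput to vas deferens. *S100a6* had 1016, 162, 2345 and 1141 UPM, so the corpus was the low library and the cauda stood 14.5 times above it (10.7 to 20.2). Basal cells were also higher in the cauda, with 7875 *S100a6* UMIs among 956465, against 7935 among 2464897 in the corpus. The same held for stromal cells (4775 among 1173469, against 2560 among 1968790). Principal cells differed little, with 69.1 UPM in corpus and 75.3 in cauda. *S100g*, the calbindin of calcium-transporting epithelia, was a cauda gene, with 32.5 UPM in caput, 57.7 in corpus, 447 in cauda and 28.5 in vas deferens cells. It was at most 12.8 UPM in principal, basal and stromal cells of any library, but Amylin-positive clear cells held 285 UPM in the caput and 95.2 in the corpus. *S100a10* (910, 1155, 1374 and 1541 UPM) and *S100a11* (1739, 1393, 1436 and 1263 UPM) varied within 2 times. Of the 6 family members tested between cauda and corpus, 4 were higher in the cauda, against 6.37% of all genes tested, but the family was listed with these values known.

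Genes with the opposite gradient, 23 in all (0.874% of those tested), were at least 2 times higher in both proximal libraries than in both distal ones, and 18 of them stood above the principal cells of both proximal libraries. The matching share of all genes tested is not given here, so nothing is read from the 18. *Nupr1*, a small stress-responsive chromatin protein, had 2755 UPM in caput, 1940 in corpus, 246 in cauda and 71.3 in vas deferens cells. Its caput level was 11.2 times that of the cauda (9.17 to 13.8), and all 4 intervals lay apart. In thinned cells *Nupr1* was seen in 16 of 20 caput, 30 of 48 corpus, 12 of 84 cauda and 1 of 20 vas deferens cells. *Clca2*, a surface protein related to calcium-activated chloride conductance, had 1901, 473, 47.8 and 64.2 UPM. *Stap1*, a signaling adaptor, had 2397, 2113, 812 and 357 UPM, and *Gpm6b*, a proteolipid of the plasma membrane, had 1073, 851, 354 and 243 UPM. For *Stap1* and *Gpm6b* the caput and corpus overlapped and the cauda lay below both. In the 14 vas deferens cells with a marker *Nupr1* had 99.0 UPM, *Clca2* 88.0, *Stap1* 550 and *Gpm6b* 374.

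Smaller members of the proximal group included *Ltbp2*, a matrix protein that binds microfibrils, with 406, 266, 113 and 0 UPM, and *Svopl*, a putative transporter, with 219, 135, 33.6 and 7.13 UPM. *Tmem213*, a membrane protein also found in kidney intercalated cells, had 130 and 204 UPM in caput and corpus, 5.31 in the cauda (3 UMIs) and none in the vas deferens. *Gm933*, with no assigned function here, peaked in corpus at 951 UPM, against 333 in caput, 147 in cauda and 42.8 in vas deferens cells. These 4 genes were close to absent from other epithelium, with at most 27.5 UPM in principal and basal cells. The proximal group was shared with the other clear cells, in that Amylin-positive cells of the caput and corpus held 3233 and 3015 UPM of *Nupr1*, 2201 and 2163 of *Stap1*, 1061 and 984 of *Clca2*, 812 and 1058 of *Gpm6b* and 221 and 164 of *Tmem213*.

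From caput to cauda *Clca2* fell in main clear cells and rose in principal and basal cells. Principal cells had 6.96 UPM in caput, 86.0 in corpus, 244 in cauda and 49.8 in vas deferens cells, and basal cells 41.8, 141, 200 and 696 UPM. *Nupr1* in stromal cells had 871, 752, 2484 and 900 UPM, highest in the cauda, and basal cells held at most 46.8 UPM.

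**Figure D4:**
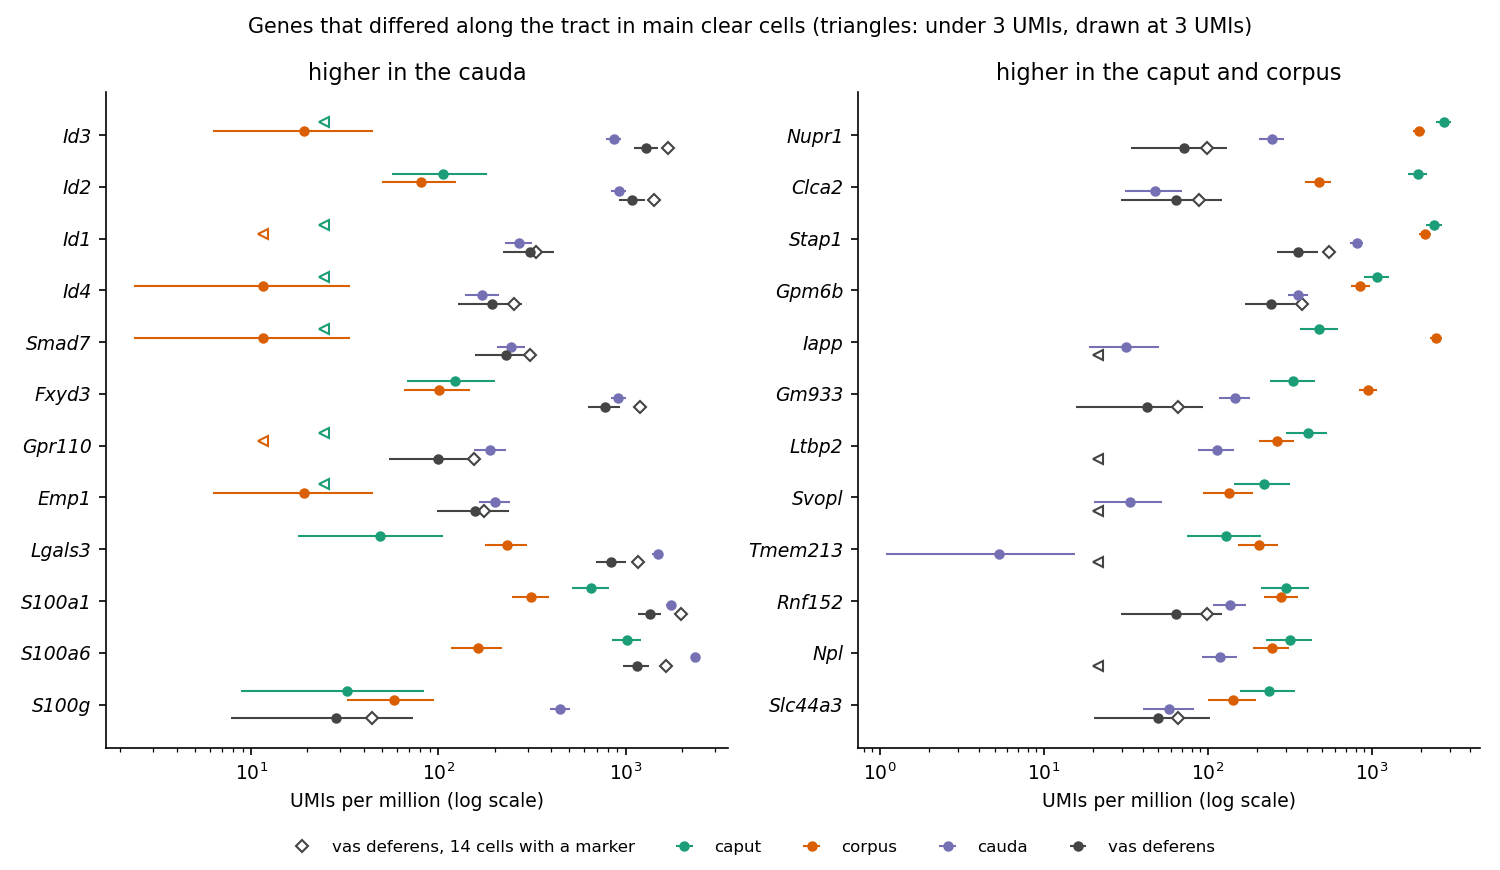
Genes higher in the cauda (left) and in caput and corpus (right) of main clear cells, in UPM on a log axis with 95% Poisson intervals. Filled points are libraries, open diamonds the 14 vas deferens cells with a marker, and triangles counts under 3 UMIs drawn at 3 UMIs. The *Id* genes separate into a low pair (caput and corpus) and a high pair (cauda and vas deferens), and *S100g* stands high in the cauda alone at 447.

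*Iapp* encodes Amylin, the islet peptide hormone whose transcript defines the other clear cell subcluster. Main clear cells had 479 UPM in caput (59 UMIs in 3 cells), 2467 in corpus (641 UMIs in 25 cells), 31.8 in cauda (18 UMIs in 5 cells) and 0 UMIs in vas deferens cells. The corpus stood 77.5 times above the cauda (48.7 to 132) and 5.15 times above the caput (3.94 to 6.84). In thinned cells *Iapp* was seen in 17 of 48 corpus cells (35.4%), against 0 of 398 corpus basal cells (up to 0.754% of cells with a UMI by a limit of 3 cells), and in 27 of 27 Amylin-positive cells. Amylin-positive cells held 44316 UPM in the caput and 49593 in the corpus, and principal cells 44.1 and 65.5 UPM. Main clear cells of the corpus thus lay between these populations. The narrow and apical cell marker *Abca1*, a cholesterol exporter, had 65.0, 84.7, 38.9 and 42.8 UPM.

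Restricted genes, at 4 or more times the level of each other library with 20 UMIs in at least 3 cells, numbered 50 among 4680 tested: 10 (0.214%) in caput, 9 (0.192%) in corpus, 3 (0.0641%) in cauda and 28 (0.598%) in vas deferens cells. Each was set against the principal cells of the same library. Main clear cells exceeded the principal cells for 21 of them, while 21 lay within background, meaning under 2 times the share of the principal level given above, and 8 in between. With the level beyond the other libraries in place of that share, 13 lay within background. Some of these genes, *Gpx5* and *Akr1b7* among them, also belong to the sets that gave the share. *Akr1b7* alone held 51317 of the 92381 UPM of the vas deferens set in principal cells. Their place within background, here and below, was thus fixed in part by the choice of genes. How many of all 4680 tested genes exceeded the principal cells is not given here, so nothing is read from the 21 that did. In the cauda all 3 (*S100g*, *Rsad2* and *Cdh16*) exceeded the principal cells. *Rsad2*, an interferon-induced antiviral enzyme, had 16.3, 50.0, 251 and 42.8 UPM, and *Cdh16*, a kidney-type cadherin, had 16.3, 15.4, 108 and 21.4 UPM. In the corpus 8 of 9 lay within background, all of them abundant transcripts of corpus principal cells, with the neuropeptide gene *Npy* among them, and *Iapp* was the exception.

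In the caput 4 genes lay within background: *Gpx5*, *Defb20*, *Spag11b* and *Defb47*, at 0.878 to 1.08% of the principal cell level. The 5 that exceeded the principal cells were *Clca2*, *Clec2l*, *Ube2e2*, *Dcn* and *Gdf15*. *Ube2e2*, a ubiquitin-conjugating enzyme, had 268 UPM in caput, 30.8 in corpus, 24.8 in cauda and 14.3 in vas deferens cells, from 12 of the 28 caput cells. *Clec2l*, a C-type lectin, had 211, 3.85, 1.77 and 0 UPM, and caput Amylin-positive cells also held it at 135 UPM. *Gdf15*, a secreted member of the TGF-beta family, had 236, 42.3, 33.6 and 21.4 UPM, with 55.2% of its caput UMIs in 1 cell. *Dcn*, a proteoglycan made by fibroblasts, had 951, 127, 77.8 and 121 UPM, with 68.4% of its caput UMIs in 1 cell. Amylin-positive cells held these 3 genes as well. Among 140422 UMIs of the caput they had 22 of *Ube2e2*, 18 of *Gdf15* and 80 of *Dcn*, against 33, 29 and 117 in main clear cells. In the corpus they had 96 UMIs of *Dcn* among 189078. *Dcn* carried nearly all of the stromal marker sum of 959 UPM in the caput, where *Lum*, *Col1a1*, *Col1a2* and *Col3a1* had 0 UMIs.

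**Figure D5:**
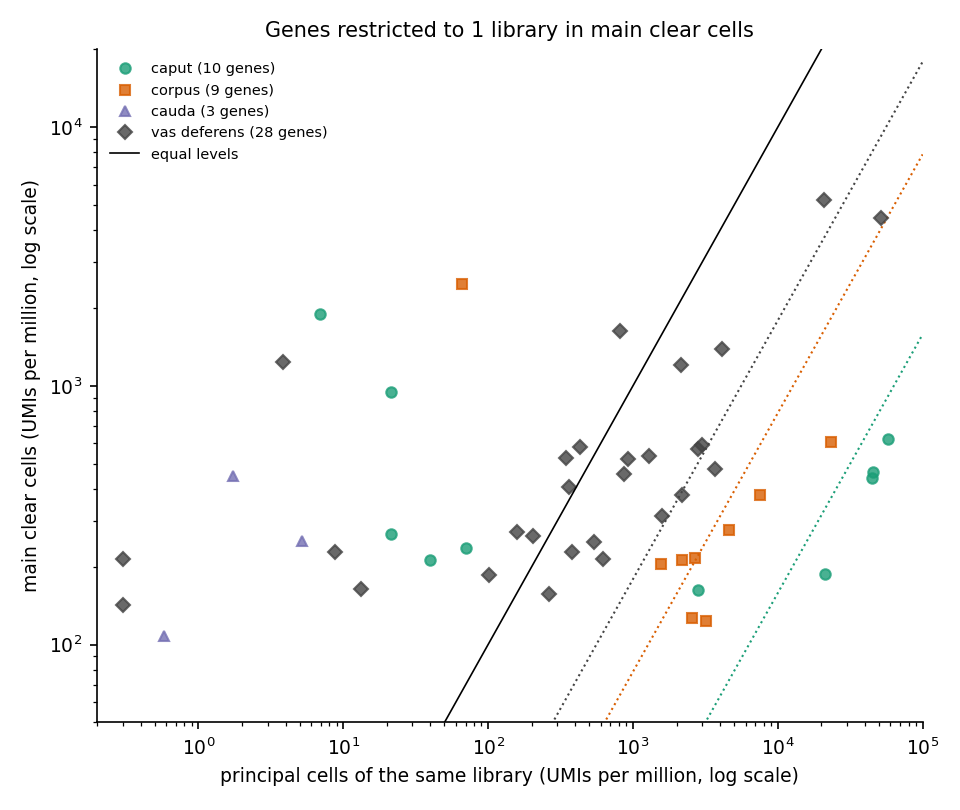
Each point is a gene restricted to 1 library in main clear cells, with its level there (y axis) against its level in principal cells of the same library (x axis), both in UPM on log axes. The solid line marks equal levels and the dotted lines the residual share of principal transcripts in the caput, corpus and vas deferens. The 3 cauda genes lie above the solid line, and 8 of the 9 corpus genes lie near a dotted line.

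The vas deferens had the most restricted genes and the least secure ones. *Akr1b7*, an aldo-keto reductase of principal cells, had 4451 UPM in 9 cells, 8.67% of the principal cell level, and 187 UPM in the 14 cells with a marker. *Abcg2*, an efflux transporter, and *Fxyd4* likewise lay within background, at 12.9 and 19.7% of the principal cell level, and *Fxyd4* no longer did with the level beyond the other libraries. A single cell held over 50% of the UMIs of 8 of the 28 genes. Without called doublets 37 genes were restricted to the vas deferens, 22 of them among the 28. Among the 14 cells with a marker, 3 genes were restricted to the vas deferens, and all 3 had 0 UMIs in the vas deferens once called doublets were left out. *Rgs5*, a regulator of G protein signaling and a pericyte marker, had 0, 3.85, 5.31 and 1241 UPM, from 8 of the 25 vas deferens cells, and 1914 UPM in the 14 cells, against 3.84 in principal and 142 in stromal cells of that library. *Stmn2*, a tubulin-binding protein of neurons, had 214 UPM from 3 cells and 0 UMIs in the other libraries, with 73.3% of its UMIs in 1 cell. *Lgals1*, encoding galectin 1, had 24.4, 30.8, 30.1 and 228 UPM, with 75.0% of its vas deferens UMIs in 1 cell. Using cells with a marker alone, 21 genes were restricted in all 4 libraries: 8 in caput, 7 in corpus, 3 in cauda and 3 in vas deferens cells. In the cauda *S100g* kept the call, *Rsad2* and *Cdh16* lost it, and *Gpx3* and *Tmcc3* gained it.

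Between cauda and corpus, the libraries with the most cells, 124 of the 134 genes higher in the cauda also exceeded the cauda principal cells, and 1 lay within background. Of the 39 genes higher in the corpus, 25 exceeded the corpus principal cells and 12 lay within background, among them *Defb22*, *Lcn5*, *Spint4* and *Crisp1*. How many of all genes tested exceeded the principal cells is not given here, so nothing is read from these counts. Of 33 endocytic genes tested 1 was higher in the cauda, against 6.37% of all genes tested. That gene, *Ap1s3*, an adaptor subunit for vesicles leaving the trans-Golgi network, had 268, 227, 490 and 335 UPM and stood 2.16 times higher in the cauda than in the corpus. *Dab2*, a clathrin adaptor, had 1056, 1109, 1945 and 885 UPM, 1.76 times higher in the cauda (1.54 to 2.01). The list of 47 trafficking genes summed to 10693, 11801, 13712 and 10850 UPM. *Stx7*, a late endosomal syntaxin, had 488, 516, 363 and 193 UPM, the opposite order.

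Metal, redox and detoxification genes, 22 in all, summed to 32372 UPM in caput, 43255 in corpus, 39172 in cauda and 31951 in vas deferens cells. The metallothionein gene *Mt1* stood highest in the corpus (8922, 16447, 10541 and 9516 UPM), and the ferritin heavy chain gene *Fth1* highest in the cauda (4550, 5427, 9118 and 5093 UPM). *Gstm1*, a glutathione transferase, had 1365, 812, 341 and 585 UPM. *Gpx3*, a secreted glutathione peroxidase, had 32.5, 223, 672 and 285 UPM in main clear cells and 96.3, 2695, 5381 and 360 UPM in principal cells.

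Summed respiratory genes varied little between the epididymal regions, while the glycolysis and citrate cycle sums fell from caput to cauda. Nuclear genes of the respiratory chain and ATP synthase, 83 in number, summed to 46495 UPM in caput, 47016 in corpus, 45824 in cauda and 44092 in vas deferens cells, and the 94 ribosomal protein genes to 166388, 148430, 154523 and 166295 UPM. Glycolysis genes summed to 7524, 7009, 6368 and 4708 UPM, led by *Ldhb*, a lactate dehydrogenase subunit, with 2421, 1747, 1454 and 1362 UPM. Citrate cycle genes summed to 3275, 2775, 2490 and 2447 UPM. The spread of the respiratory list between its highest and lowest library was 1.07 times (1.03 to 1.10). With every cell weighted equally, that list had 36870 UPM in caput, 38469 in corpus and 44237 in cauda cells.

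Immediate early and heat shock genes, which respond to tissue dissociation, were highest in caput, where the 22 genes summed to 26286 UPM, against 17625 in corpus, 16610 in cauda and 14909 in vas deferens cells. *Fos* had 2129, 866, 536 and 606 UPM and *Jun* 2560, 1339, 1050 and 785 UPM. These levels moved with the same library as *Nupr1*, *Clca2* and *Gdf15*, and their part in those results was not tested. Sterol synthesis genes summed to 520, 778, 1280 and 3902 UPM, and to 1254 UPM in the 14 vas deferens cells with a marker, so the high vas deferens level rested on the cells without one. Defense and antigen presentation genes summed to 8597, 10304, 11914 and 9473 UPM, led by *B2m*, the light chain of class I molecules, with 2633, 4319, 4895 and 4408 UPM.

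Markers of other cell types were lower than the clear cell markers in caput, corpus and cauda, but in the vas deferens the principal and immune lists stood above them (4886 UPM). Principal cell markers summed to 1316 UPM in caput, 3164 in corpus, 1850 in cauda and 11292 in vas deferens cells, with 715 UPM in the 14 vas deferens cells with a marker. With every cell weighted equally the corpus principal markers reached 11430 UPM, above the clear cell markers at 7347. Basal markers summed to 56.9, 46.2, 88.4 and 178 UPM, with *Trp63* at 0 UMIs in all 4. Stromal markers summed to 959, 162, 77.8 and 207 UPM, muscle markers to 8.13, 119, 10.6 and 128 UPM, and endothelial markers to 0, 34.6, 8.84 and 0 UPM. The immune list summed to 0, 993, 780 and 5236 UPM, nearly all of it *Cd52* (0, 989, 773 and 5229 UPM). Principal cells of the vas deferens held *Cd52* at 20712 UPM. Over all libraries the immune list summed to 20563 UPM in principal cells and to 8714 in immune cells. In the 14 vas deferens cells with a marker the immune list summed to 275 UPM. No UMI of the erythrocyte or sperm markers was found. Secreted families of principal cells, 108 genes, summed to 7597, 11963, 9563 and 19517 UPM. Of these genes 42 had at least 20 UMIs over all main clear cells, and 11 were restricted, against 50 of all 4680 genes tested. The list was made with earlier results known, so nothing is read from that share.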

How the data were processed

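Segments were dissociated enzymatically after sperm had been washed out, and 10x 3' libraries were made, 1 for each region. The authors demultiplexed reads with bcl2fastq, aligned them with HISAT2 2.0.4 to mm10 and made UMI counts per gene and cell with ESAT on a RefSeq annotation. Reads that mapped to several places were ignored in these deposited counts, so near-identical genes may be undercounted. They kept cells by their UMI total and removed ambient RNA with a modified SoupX, so the counts analysed here were already reduced: in main clear cells removal had taken 1.51 to 3.14% of the UMIs. Cell types are those of the deposited annotation, in which clusters were formed on these same genes.

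Here the counts of the main clear cells were summed by library over 16892 genes, with no further filter on cells, and divided by their total. With 1 library for each region no test was possible, and genes were selected by size alone. A gene was restricted at 4 times every other library with 20 UMIs in 3 cells, and higher in cauda or corpus at 2 times with 50 UMIs. A gene was proximal or distal when both libraries of one end stood 2 times above both of the other, with 50 UMIs over the higher 2. Libraries under 3 UMIs were raised to 3 UMIs. Doublets were called by nearest neighbors among simulated doublets, with the share called (1.15 to 2.81% of all cells) set by library size. Genes named are members of the pump, transport and lineage lists with 20 UMIs, the leading restricted, cauda and corpus genes by ratio, and list members past a rule or with the most UMIs, and others were named after their values were seen. The members and lists were chosen with earlier results of these data known. The rules were tested on simulated counts. Software was scikit-learn 1.9.0 for doublets, scipy 1.17.1 for intervals and Python 3.11.15 with pandas 2.3.3 for the sums.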

Additional observations from a re-analysis of the deposited data

Results flagged for a closer look

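Of the 134 genes higher in cauda than corpus main clear cells, 14 were at least 2 times higher in the corpus in principal cells, and of the 39 genes higher in corpus main clear cells, 3 were higher in the cauda in principal cells. These are differences in direction between cell types of the same libraries, and the differences themselves were not tested. How many of all genes tested differed by 2 times in principal cells is not given here, so nothing is read from the 14 or the 3. *Clca2* was 9.92 times higher in the corpus in main clear cells, with the cauda higher in principal cells (244 against 86.0 UPM). *Cdh16* was 7.01 times higher in the cauda in main clear cells, against 128 UPM in corpus and 0.575 in cauda principal cells. The UDP-glucose dehydrogenase gene *Ugdh* was 6.32 times higher in the cauda, the sialyltransferase gene *St6gal1* 3.81 times, the acid phosphatase gene *Acpp* 3.70 times and the class I gene *H2-Q2* 3.10 times. The transcription factor gene *Maff* was 2.99 times higher, the kinase anchor gene *Akap2* 2.80 times, the imprinted gene *Peg3* 2.68 times and the kinase gene *Mapk3* 2.49 times. *Slc16a10*, an amino acid transporter, was 2.46 times higher, *Fam107b* 2.32 times, the phosphatase gene *Dusp10* 2.24 times, the ganglioside activator gene *Gm2a* 2.16 times and *Ccrn4l* 2.08 times. In principal cells the opposite difference was 2.028 times for *Ugdh* and *Dusp10* and 2.065 times for *Akap2*, so these only just passed. The remaining genes of this kind, *Wfdc10* and *Crisp1*, lay within the principal cell background of the corpus.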

How the results depend on the processing

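No paired analysis was possible because each region had 1 library and no result came from a test. The 50 restricted genes became 39 to 63 when 1 library was left out, 30 without the cell richest in each gene, 32 after subtracting the residual principal share, 29 at 6 times and 31 at 50 UMIs. Without cells over 2% principal transcripts they numbered 23, and with marker-bearing cells alone 21; these last 2 alternatives were chosen after seeing the data. Genes higher in cauda than corpus (134) became 221 when cells were weighted equally, 343 at 1.5 times, 52 at 3 times and 372 at 20 UMIs, and those higher in corpus (39) became 23 without the richest cell, 92 at 1.5 times, 17 at 3 times and 154 at 20 UMIs. The 39 distal genes became 62 with equal weights, the 23 proximal genes 15 without the richest cell, and the 21 genes within background 12 at 1 times the residual and 13 with the level beyond the other libraries, an alternative chosen after seeing the data.

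Cauda over vas deferens ratios moved with the vas deferens cells kept. Without doublets, which left mainly cells lacking markers, they became 3.52 from 1.73 for V1, 3.16 from 1.06 for V0, 2.63 from 1.21 for subunits outside the markers, 5.63 from 1.91 for the markers and 1.09 from 1.04 for the respiratory chain. Without the richest cell they were 1.98, 1.24, 1.39, 2.22 and 1.16, and with equal weights 1.23 for V0, 1.36 outside the markers and 1.19 for the respiratory chain. Without cells over 2% principal transcripts they were 1.30, 0.810, 0.954 and 1.34 for V1, V0, subunits outside the markers and the markers. With marker-bearing cells alone they were 0.897 outside the markers and 0.9998 for the respiratory chain. Vas deferens over cauda, the principal markers (6.11) became 17.9 without doublets, 4.93 with equal weights, 5.13 without the richest cell, 1.07 without cells over 2% and 0.406 with marker-bearing cells. Sterol synthesis (3.05) became 4.72, 2.23 without the richest cell, 1.97 and 1.03 for the same cell selections. *Clu* (4.26) became 0.979 without the richest cell, 0.908 without cells over 2% and 0.694 with marker-bearing cells, and *Gpx3* (0.425) became 1.02 without doublets. Caput over cauda, immediate early genes (1.58) became 1.66 in cells of 2000 UMIs, 1.32 with equal weights, 1.48 with median-of-ratios scaling and 1.42 without the richest cell. With equal weights the Amylin list, corpus over cauda (9.79), became 6.99 and S100 genes, cauda over corpus (2.37), 3.13, and BMP targets (3.82) became 4.47 without the richest cell. The cause of these shifts was not tested.

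Of the other summary values, 82 stayed within their counting interval or 1.5 times. *Id3*, *Id2* and *Nupr1* kept their direction under every alternative run. Depth limited the caput and vas deferens most.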

Other observations

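Receptors and signaling genes of clear cells, 33 in all, summed to 618, 635, 704 and 863 UPM from caput to vas deferens, with 561 UPM in the 14 vas deferens cells with a marker. The adenosine receptor gene *Adora1* had 114, 108, 119 and 42.8 UPM, and the purinergic receptor gene *P2rx4* had 48.8, 42.3, 74.3 and 28.5 UPM. Hormone receptors and steroid enzymes summed to 284, 285, 308 and 321 UPM, with overlapping intervals.

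Hox genes, 36 in all, summed to 910 UPM in caput, 801 in corpus, 605 in cauda and 828 in vas deferens cells, with 638 UPM in the 14 cells with a marker. *Hoxb9* had 163, 173, 103 and 150 UPM and *Hoxb8* 195, 135, 93.7 and 85.6 UPM. None of the Hox genes passed a rule, but only 3 had the 50 UMIs needed for the cauda and corpus rule.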
